A study of Mus musculus with 220 samples.

Results

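High endothelial cells (HEC) of resting lymph nodes were divided by their own level of Glycam1, and all other transcripts were compared between the cells above and below the division. The cells are the 79 homeostatic HEC among the 220 single endothelial cells of the series, all from C57BL/6 mouse lymph nodes. The 79 cells were divided at their median Glycam1 level of 59091 FPKM (fragments per kilobase of a transcript, relative to all mapped fragments of that cell), which gave 39 cells above it, called Glycam1-high, and 40 at or below it, called Glycam1-low. Since membership was chosen by the measured level of Glycam1, its own values are a description only.

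Homeostatic HEC came from untreated mice. The series also holds 32 blood endothelial cells (BEC) of untreated mice, 65 inflamed HEC taken on day 3 after 4% oxazolone, a contact sensitiser, was put on the skin, and 44 dedifferentiated HEC harvested on day 7 from mice given LTBR-Ig, a decoy form of the lymphotoxin β receptor, once into the peritoneum. All cells are C57BL/6, were sorted by flow cytometry and had their complementary DNA made on the Fluidigm C1 system, 1 library a cell. The labels tie no cell to an animal, a pool or a chip and give no gate, so the 79 cells count as 1 sample. There is therefore no replicate check and no p-value, and an SD below is the spread over cells.

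High endothelial venules are the vessels through which naive lymphocytes leave the blood. Their lining cells make sialomucins, heavily glycosylated proteins decorated with sulfated and fucosylated sugars that L-selectin on lymphocytes binds, and they present the chemokine CCL21 on their surface. Glycam1 encodes a secreted sialomucin that carries such sugars. Capillary endothelium of the same node has a different programme, with receptors for vascular endothelial growth factor and proteins of lipid uptake.

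Glycam1 spanned a wide range within the homeostatic HEC. It had a lowest value of 49.63, a median of 19064 and a highest value of 59091 FPKM in the Glycam1-low cells, and 59713, 121464 and 295547 FPKM in the Glycam1-high cells. The levels ran continuously through the division: the cell just below the median cell had 58725 FPKM and the cell just above it 59713 FPKM. In BEC it lay between 32.8 and 594.2 FPKM (median 66.2), and 2 homeostatic HEC were at or below the highest BEC. The other Glycam1-low cells were low relative to other HEC, yet above every BEC.

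The groups were alike in the amount of RNA information per cell. The number of genes reaching an FPKM of 1 had a lowest, median and highest value of 2111, 3804 and 5490 in Glycam1-high and of 2204, 3861 and 5654 in Glycam1-low cells. The rank correlation of Glycam1 with the number of genes was -0.03 over the 79 cells. Approximate depth, read from the spacing of small FPKM values, was 1841466 fragments in the median Glycam1-high cell and 1848862 in the median Glycam1-low cell. Summed FPKM was larger in Glycam1-high cells (median 695410 against 599312), but without Glycam1 the medians were 569166 and 578395. Glycam1 alone made up 16.9% of the total in the median Glycam1-high cell and 3.21% in the median Glycam1-low cell.

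**Figure D1:**
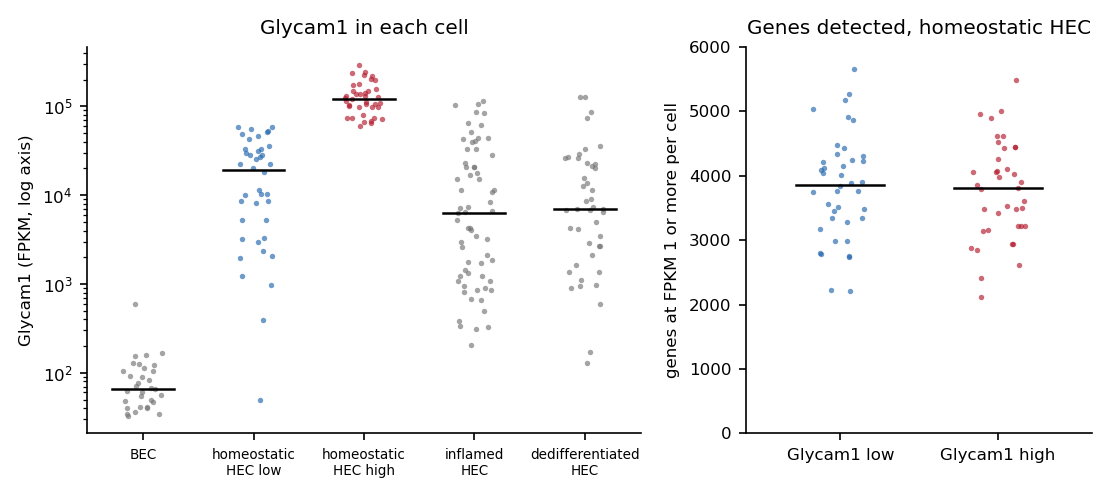
Left, Glycam1 in every cell (FPKM, log axis) of BEC, Glycam1-low and Glycam1-high homeostatic HEC, inflamed HEC and dedifferentiated HEC; right, number of genes that reach an FPKM of 1 in each homeostatic HEC. Points are cells and bars are medians; the medians for gene number, 3861 and 3804, nearly coincide.

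Each difference given is the mean log2(FPKM + 1) of Glycam1-high cells minus that of Glycam1-low cells, and a gene is called higher or lower where it is at least 1 in size. Of 9322 genes that reached an FPKM of 1 in more than 10% of the cells of either group, 265 (2.84%) were higher and 383 (4.11%) were lower in Glycam1-high cells. The median over these genes was -0.04. Among the 3224 genes detected in at least 50% of the cells of either group, from which the leading genes were taken, 6.05% were higher and 8.75% lower. The median SD over cells of these genes was 2.43 in Glycam1-high and 2.53 in Glycam1-low cells, so a difference near 1 is small against the spread of single cells.

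The transcript furthest above was Ly6i and the one furthest below was Ly6c1, 2 members of the Ly6 family of small surface proteins anchored by a lipid, which lie near each other on chromosome 15 of GRCm38 (Ly6i at 74979534 to 74983430, Ly6c1 at 75044018 to 75048830). Ly6i had a lowest, median and highest FPKM of 1.47, 361.1 and 1340 in Glycam1-high cells and 0, 10.8 and 1197 in Glycam1-low cells. Its mean on the log2 scale was 8.29 ± 1.87 against 4.16 ± 3.54 (SD, n = 39 and 40 cells), a difference of 4.12. The groups overlapped, but 37 of 39 Glycam1-high cells lay above the Glycam1-low median.

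Ly6c1, a marker of capillary endothelium, had 0, 9.86 and 938.3 FPKM in Glycam1-high cells and 0.36, 1027 and 5906 FPKM in Glycam1-low cells. Its mean was 3.70 ± 2.29 against 8.70 ± 3.09, a difference of -4.99. No Glycam1-high cell reached the Glycam1-low median, while 37 of 40 Glycam1-low cells exceeded the Glycam1-high median. Ly6c1 was at 12.39 on this scale in BEC, so the Glycam1-low cells lay between Glycam1-high cells and BEC. Ly6 genes have near-identical copies, and the assignment of fragments among them is uncertain. Ly6a, another member, was also lower in Glycam1-high cells (-1.70).

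At a limit of 100 FPKM, Ly6c1 was present in 4 of 39 Glycam1-high cells (10.3%, exact Clopper-Pearson 95% interval 2.87% to 24.2%) and 31 of 40 Glycam1-low cells (77.5%, 61.5% to 89.2%). Ly6i passed that limit in 35 of 39 (89.7%, 75.8% to 97.1%) and 14 of 40 (35%, 20.6% to 51.7%). These intervals cover counting error over cells only. Both genes were chosen as the extremes of this same division, and the limit follows no stated rule. The gap between the intervals is therefore a description and no support for a difference. Both genes passed 100 FPKM together in 3 Glycam1-high and 11 Glycam1-low cells, so the transcripts were not exclusive of each other. Their rank correlation was -0.48 over 79 cells but -0.13 within Glycam1-high and -0.12 within Glycam1-low cells; cells share the captured library chemistry and these values are descriptions.

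Clu, which encodes the secreted chaperone clusterin, was the next gene above. It had 136.5, 12631 and 44862 FPKM in Glycam1-high cells and 0.66, 1642 and 33685 FPKM in Glycam1-low cells, with means of 13.57 ± 1.40 and 10.03 ± 3.34 and a difference of 3.54. Of the Glycam1-high cells, 38 of 39 had 1000 FPKM or more (97.4%, 86.5% to 99.9%), while 22 of 40 Glycam1-low cells reached that level (55%, 38.5% to 70.7%). The limit and intervals for Clu carry the same reservation as those for Ly6i and Ly6c1.

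Some further genes above encode proteins of the secretory and endosomal route. The share of such genes among all candidates was not counted, and the lysosomal Hexa and the cargo receptor Cnih1 were among the genes below. Cd63, a tetraspanin of late endosomes and Weibel-Palade bodies, had 5.78, 757.5 and 1920 FPKM in Glycam1-high and 0, 181.1 and 1259 FPKM in Glycam1-low cells, a difference of 2.52. Nucb2, a calcium-binding protein of the secretory pathway, differed by 2.65, and Fam134b, a receptor for autophagy of the endoplasmic reticulum, by 2.17. Secreted proteins were also among them: the protease inhibitors Serpina1e (2.43) and Serpina1b (2.10), the prostaglandin D synthase Ptgds (2.47), the peptidase Cpq (2.50), Bpifb5 (2.38) and the neutrophil chemokine Cxcl1 (2.07). Serpina1e and Serpina1b are near-identical copies, so their split is uncertain. As log2 ratios of arithmetic means, Serpina1e (0.91), Serpina1b (0.50) and Cxcl1 (0.87) were under 1, and in cells matched on gene number so were Serpina1b (0.50) and Cxcl1 (0.92). The remaining leading genes were Wbscr27 (2.71), the phosphatase subunit Ppp6c (2.36), the mitochondrial ribosomal protein Mrps12 (2.11) and the amino acid oxidase Il4i1 (2.04, but 0.93 with a pseudocount of 10).

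On the opposite side, Fabp4, which binds fatty acids in capillary cells, had 0, 15.5 and 3581 FPKM in Glycam1-high and 0, 547.6 and 11436 FPKM in Glycam1-low cells, a difference of -2.74. Its mean in BEC was below that of the Glycam1-low cells, unlike the BEC mean of Kdr. Kdr, the main receptor for vascular endothelial growth factor, had 0, 3.24 and 116.6 FPKM against 0.12, 43.5 and 325.5 FPKM, a difference of -2.36. Both genes overlapped between the groups, and 4 of 39 Glycam1-high cells lay above the Glycam1-low median of Kdr. Thbd, the thrombin receptor thrombomodulin, differed by -2.12, the tetraspanin Tspan12 by -2.40, the matrix protein Fbln2 by -2.36, and Lims2, an adaptor of integrin adhesions, by -2.29.

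Some surface and adhesion genes were on this side too. Their share among all candidates was not counted, and the surface protein Ly6i was among the genes above. Selp, which encodes P-selectin, a rolling receptor stored in Weibel-Palade bodies, had 0, 0.49 and 274.1 FPKM in Glycam1-high and 0, 43.7 and 400.2 FPKM in Glycam1-low cells, a difference of -2.16. It reached an FPKM of 1 in 16 of 39 and 30 of 40 cells. Jam2, a junctional adhesion molecule, differed by -2.16, the adhesion regulator Fxyd5 by -3.27 and the annexin Anxa2 by -2.23. Unlike Kdr or Ly6c1, Selp was close to absent in BEC, with a mean of 0.45. Slc43a3 (-2.32), the lysosomal hexosaminidase subunit Hexa (-2.39), Cxx1a (-2.07) and the cargo receptor Cnih1 (-2.04) completed the 15 genes furthest below. For 6 of these 15 genes (Ly6c1, Tspan12, Kdr, Lims2, Jam2 and Thbd) the BEC mean was above that of the Glycam1-low cells, and for 9 it was below. Of the 15 leading genes higher in Glycam1-high cells, 13 had a BEC mean below that of the Glycam1-low cells and 2 above it. The share of all genes on each side was not counted.

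**Figure D2:**
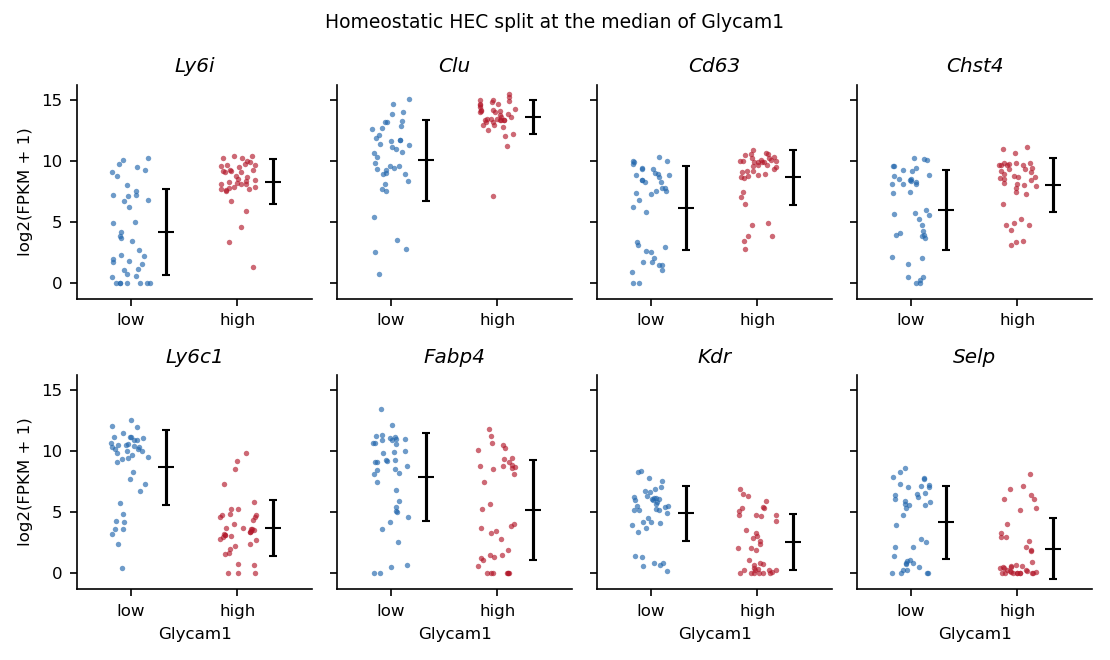
Level of 8 genes in each homeostatic HEC, as log2(FPKM + 1), in Glycam1-low and Glycam1-high cells; points are cells, and the bar beside them is the mean with the SD over cells. Ly6i, Clu, Cd63 and Chst4 sit higher and Ly6c1, Fabp4, Kdr and Selp lower in the Glycam1-high cells, with overlap for every gene.

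The cells were next ordered by Glycam1 into 4 bins, of 20, 20, 20 and 19 cells from the lowest to the highest, to see where along the range the differences lay. Glycam1 ran from 49.63 to 18043 FPKM in the lowest bin and from 20085 to 59091 in the second. It ran from 59713 to 121464 in the third and from 124706 to 295547 in the highest. On a log scale the lowest bin was by far the widest, so a step between bins is not an equal step in Glycam1. Ly6i averaged 1.83, 6.49, 7.64 and 8.97 from the lowest to the highest bin, and Clu 8.70, 11.36, 13.51 and 13.64. Cd63 averaged 7.82, 8.43 and 8.84 in the upper 3 bins and was lower still in the lowest. For each of these 3 genes the step from the lowest bin to the second was the largest. Of the 15 leading genes above, 13 differed by 1 or more between the lowest bin and the second, and 2 did so between the third bin and the highest. The share of all genes with such steps was not counted, so these counts alone do not place the differences along the range.

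Over single cells, the rank correlation with Glycam1 of these 15 genes ran from 0.29 to 0.72 over all 79 cells, from 0.11 to 0.60 within Glycam1-low cells and from -0.24 to 0.39 within Glycam1-high cells. Glycam1 spanned a wider range on a log scale within Glycam1-low than within Glycam1-high cells, so the correlations within each are not like for like. The genes were chosen by this division in the same cells, so their sign over all 79 cells was set by the choice. Ccl21a, not among them, averaged 13.76, 15.10, 15.86 and 14.05, so its level was highest in the third bin and not in the cells with the most Glycam1.

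Among the genes below, Ly6c1 averaged 9.51, 7.89, 4.06 and 3.33, with its largest step at the middle of the range, where the cells were divided. Fabp4 averaged 8.71, 7.11, 7.00 and 3.25 and Anxa2 8.11, 6.83, 6.26 and 4.17, so their largest step lay within the Glycam1-high cells. Kdr averaged 6.18, 3.63, 3.61 and 1.43. Of the 15 leading genes below, 9 were lower by 1 or more in the second bin than in the lowest and 6 were lower by 1 or more in the highest bin than in the third. For these steps too the share of all genes was not counted. The rank correlation of these 15 genes with Glycam1 ran from -0.68 to -0.22 over all 79 cells, from -0.41 to 0.11 within Glycam1-low cells and from -0.58 to -0.002 within Glycam1-high cells. Here too the sign over all 79 cells was set by the choice of the genes. The courses of the genes above and below were not tested against each other. The bins had medians of 3664, 3974, 3922.5 and 3507 detected genes, so the highest bin had the fewest.

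**Figure D3:**
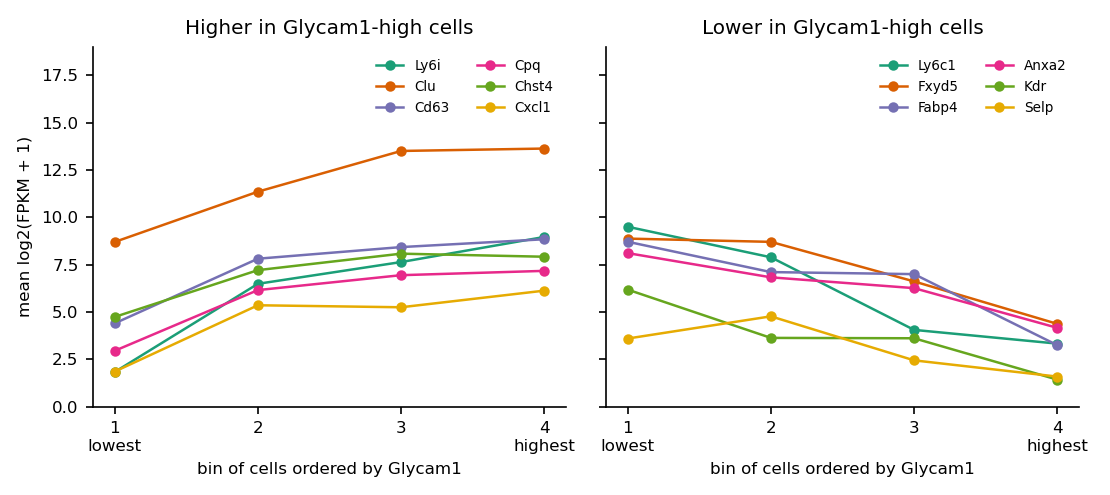
Mean log2(FPKM + 1) of 12 genes in 4 bins of homeostatic HEC ordered by Glycam1 (20, 20, 20 and 19 cells). The genes on the left are lowest in the lowest bin and those on the right, other than Selp, are highest there; Ly6i goes from 1.83 to 8.97 and Ly6c1 from 9.51 to 3.33.

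Lists of genes with a known role, 58 of whose members outside the 30 leading genes were past 1 (17 of them with a pseudocount of 10 and 35 as ratios of arithmetic means), were then read against the background of 2.84% of genes higher and 4.11% lower. For genes detected in at least 50% of the cells of either group these shares were 6.05% and 8.75%, the nearer background for widely detected members. With a pseudocount of 10, the members still higher by 1 or more were Chst4, Gcnt1, Ubd, Cd55, Pf4, Tmed3, Sec11c, Ssr4 and Arhgdib. Those still lower by 1 or more were Ly6a, Sparcl1, Fabp5, Sparc, Irf7, Irgm1, Gbp2 and Gbp4. The rest of the 58 were under 1 in size at that setting. The lists were chosen with earlier results of these data known, and their counts include leading genes. Their shares are therefore descriptions and no independent support. The list of enzymes that build L-selectin ligands had 2 of 13 measured members higher, none lower and a median of 0.20, which turned to -0.020 between the top and bottom tercile of Glycam1. Chst4, the sulfotransferase of high endothelium, had 7.61, 402.7 and 2294 FPKM in Glycam1-high and 0, 110.5 and 1183 FPKM in Glycam1-low cells, a difference of 2.03. Gcnt1, the core branching enzyme, differed by 1.48, while the fucosyltransferase Fut7 (0.66) and the second sulfotransferase Chst2 (0.37) were within 1. Of the genes that supply sugar nucleotides and activated sulfate, 2 of 14 were higher and none lower (median 0.45): Papss2, which makes the sulfate donor (1.49), and Tsta3, of GDP-fucose synthesis (1.18). With a pseudocount of 10 Papss2 was at 0.94 and Tsta3 at 0.59. Among the other sialomucins, 1 of 5 was lower, Podxl (-1.31, but -0.66 with a pseudocount of 10), and none higher. Cd34 was at -0.68 and Madcam1 was too little detected to pass the filter.

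Of the high endothelial markers, 3 of 8 were higher and none lower (median 0.60). Besides Chst4 and Gcnt1 this was Ubd, a cytokine-induced modifier related to ubiquitin, with 551.5, 7371 and 13406 FPKM in Glycam1-high and 71.2, 3278 and 16301 FPKM in Glycam1-low cells, a difference of 1.51. Ubd averaged 9.94 in the lowest bin and 12.46, 12.64 and 12.78 in the others, so the lowest bin stood furthest from the rest. As log2 ratios of arithmetic means Chst4 (0.95), Gcnt1 (0.95) and Ubd (0.87) were each under 1. Other hallmarks of HEC were within 1 between the groups: Ccl21a, the chemokine of naive lymphocytes, differed by 0.55, the atypical chemokine receptor Ackr1 by -0.02 and Enpp2, which makes lysophosphatidic acid, by -0.19. For Ccl21a this difference hides the rise and fall along the bins given above. Ccl21a has near-identical copies, and its fragments cannot be assigned with certainty.

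Blood vessel lists lay lower in the Glycam1-high cells. Capillary and lipid handling genes had 6 of 13 members lower and none higher (median -0.996): Ly6c1, Fabp4, Ly6a, Sparcl1 (-1.69), the water channel Aqp1 (-1.602) and Fabp5 (-1.598). With a pseudocount of 10 Aqp1 was at -0.97. The BEC mean of Ly6c1 was above that of the Glycam1-low cells, but that of Fabp4 was below it. Angiogenic receptors and tip cell genes had 5 of 10 lower, Kdr, Flt1 (-1.79), Tek (-1.40), Aplnr (-1.11) and Nrp1 (-1.07), and 1 higher, the Tie receptor ligand Angpt2 (1.25), with a median of -1.01. With a pseudocount of 10 Kdr stayed past 1 (-1.32), but Flt1 (-0.96), Tek (-0.97), Aplnr (-0.41), Nrp1 (-0.76) and Angpt2 (0.54) did not. Basement membrane genes had 3 of 13 lower and none higher (median -0.64), namely Sparc (-1.64) and the collagens Col4a1 (-1.54) and Col4a2 (-1.34). With a pseudocount of 10 Sparc was at -1.54, Col4a1 at -0.99 and Col4a2 at -0.85. For Sparc no Glycam1-high cell lay above the Glycam1-low median. Among endothelial transcription factors 3 of 19 were lower, Mef2c (-1.48), Sox18 (-1.33) and Id1 (-1.11), and none higher. With a pseudocount of 10 these were at -0.90, -0.90 and -0.68. Of the blood endothelial markers 3 of 12 were lower, the receptors Kdr, Flt1 and Tek, and none higher (median -0.47). The junction genes Pecam1 and Cdh5 were at -0.08 and -0.49.

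Of the interferon response genes, 6 of 26 were lower and none higher (median -0.37). They were Irf7 (-2.04), the GTPases Irgm1 (-1.70), Gbp2 (-1.67), Gbp4 (-1.61) and Iigp1 (-1.12), and Ifi27l2a (-1.16), while Irf1 was at 0.13. In the list of MHC class I and immunoproteasome genes 2 of 15 were lower, Psme2 (-1.40) and the peptide transporter Tap1 (-1.30), with a median of -0.45. At the higher pseudocount of 10 Psme2 was at -0.96 and Tap1 at -0.79. No class II gene passed 1 in either direction among 6.

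Chemokines went both ways: Cxcl1 and Pf4 (1.66) were higher, and the interferon-induced Cxcl9 (-1.36) and the stromal chemokine Cxcl12 (-1.33) were lower, among 10. With a pseudocount of 10 Cxcl9 was at -0.92 and Cxcl12 at -0.68. Lymphotoxin receptor and NF-kB genes had 2 of 20 higher, Ubd and the inhibitor Nfkbie (1.29, but 0.68 with a pseudocount of 10), and none lower. Ltbr was at -0.93 and the median was 0.04. Genes of endoplasmic reticulum translocation, folding and export had 4 of 41 higher and none lower (median 0.28): the cargo receptor Tmed3 (1.88), the signal peptidase subunit Sec11c (1.601), the translocon-associated Ssr4 (1.56) and Manf (1.39). As log2 ratios of arithmetic means these were 0.84, 0.86, 0.60 and 0.35, all under 1. Complement and acute phase genes had 2 of 14 higher, Cd55 (1.67) and Reg3g (1.40, but 0.97 with a pseudocount of 10). Of lysophospholipid genes, the phosphatases Ppap2a (-1.51) and Ppap2b (-1.41) and the lyase Sgpl1 (-1.15) were lower and Gpr182 (1.24) was higher, among 12. With a pseudocount of 10 they were at -0.83, -0.96, -0.49 and 0.65 in that order.

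The other lists had few members past 1. In glycolysis 3 of 14 were lower and none higher (median -0.21), namely Tpi1 (-1.25), Ldha (-1.19) and Pfkp (-1.10). With a pseudocount of 10 these were at -0.62, -0.97 and -0.49. Venous genes had 3 of 12 lower, Selp, Ephb4 (-1.25) and Bgn (-1.20), and 1 higher, Ctsh (1.24), with Nr2f2, the venous regulator, at -0.13. With a pseudocount of 10 Ephb4 was at -0.61, Bgn at -0.65 and Ctsh at 0.61. Adhesion molecules of lymphocyte entry had Cd63 higher and Jam2 and Selp lower among 16, with Icam1 at 0.31 and Vcam1 at 0.89. Arterial and Notch genes had 2 of 8 lower, Efnb2 (-1.07) and Gja4 (-1.07), and oxidative phosphorylation 1 of 26, Sdhc (-1.04). With a pseudocount of 10 Efnb2 was at -0.45, Gja4 at -0.66 and Sdhc at -0.55. The cell cycle list had Rrm1 (1.02) higher and Mcm3 (-1.21) lower among 8, but at 0.43 and -0.76 with a pseudocount of 10. Of immediate early and heat shock genes 1 of 18 was higher, Fos (1.25, but -0.040 in cells matched on gene number).

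**Figure D4:**
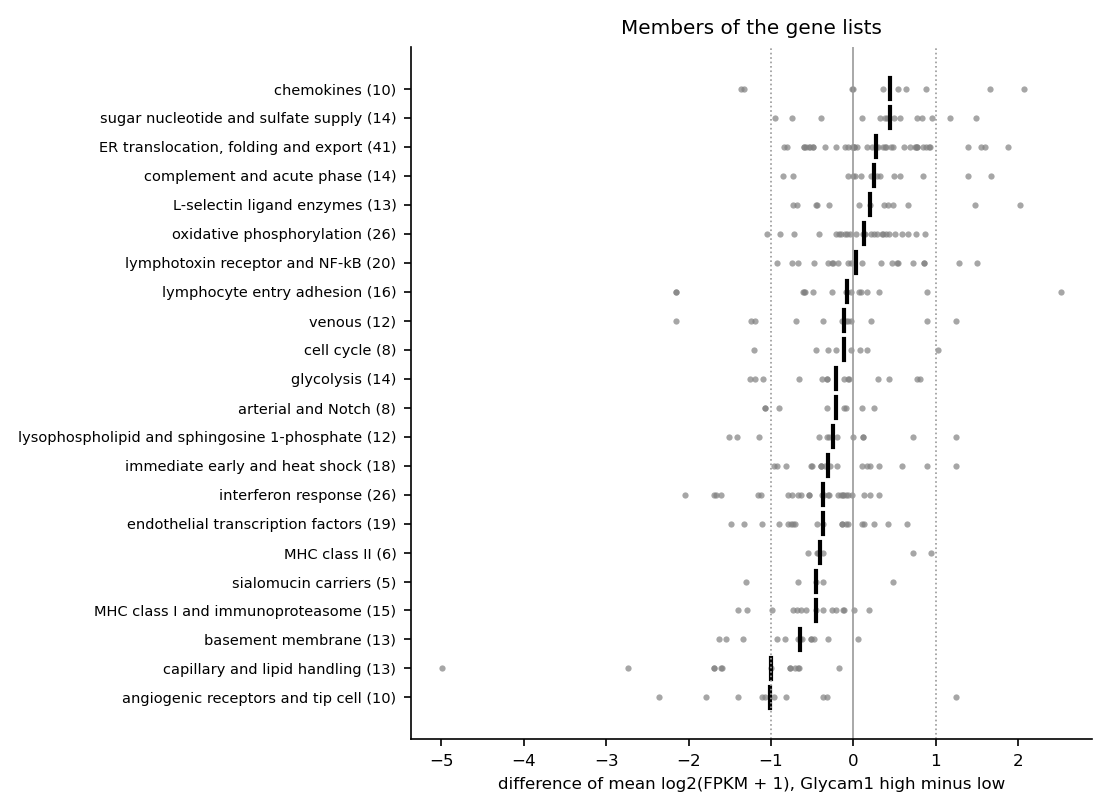
Difference of mean log2(FPKM + 1), Glycam1-high minus Glycam1-low, for the members (points) of 22 gene lists, with the list median as a bar and the number of members after the filter in brackets; dotted lines mark -1 and 1. The capillary (median -0.996) and angiogenic (median -1.01) lists lie furthest to the left.

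Some leukocyte transcripts differed between the groups. Of the pan-leukocyte markers 2 of 7 were higher and none lower (median 0.43), Arhgdib (1.59) and Coro1a (1.30, but 0.59 with a pseudocount of 10). The other markers of that list were within 1, with Ptprc at 0.06 and Cd52 at -0.16. In cells matched on gene number the list median was -0.005. The summed FPKM of the pan-leukocyte list had a lowest, median and highest value of 2.52, 305.7 and 2675 in Glycam1-high and 1.30, 185.9 and 5000 in Glycam1-low cells. At 3 or more markers of another cell type with an FPKM of 10 or more, 13 Glycam1-high and 6 Glycam1-low cells carried such markers, 13 and 6 by the pan-leukocyte list, 5 and 1 by the B lymphocyte list and 0 and 1 by the myeloid list. Without these cells Ly6i differed by 4.62, and the part of leukocyte transcripts in the other differences was not tested. Platelet Pf4 was detected, but Ppbp, Gp9, Gp1bb and Gp6 were at 0 in all 79 cells, and no cell carried 3 markers of lymphatic endothelium, pericytes, fibroblastic reticular cells, T lymphocytes or platelets. Prox1 and Reln (lymphatic), Pdgfra, Col1a1 and Lum (fibroblastic) and Cd3e (T lymphocyte) were at 0 throughout. The pericyte list had 1 of 3 members lower, Mcam (-1.61, but -0.84 with a pseudocount of 10). No lymphatic, fibroblastic, T lymphocyte, B lymphocyte or myeloid marker that passed the filter differed by 1 or more. No erythroid marker passed the filter. All 79 cells carried 3 or more high endothelial and 3 or more blood endothelial markers at that level.

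The same division was made in the inflamed and dedifferentiated HEC, which had no part in choosing the genes. Each group was divided at its own Glycam1 median, which was 6350 FPKM over 64 inflamed HEC (2 near-identical profiles were averaged) and 7027 FPKM over 44 dedifferentiated HEC, far below that of the homeostatic cells. In inflamed HEC all 15 leading genes above had a positive difference and 9 were higher by 1 or more, against 44.1% above 0 and 6.82% higher among the 3224 genes from which they came. Of the 15 below, 14 had a negative difference and 8 were lower by 1 or more, against 55.9% below 0 and 8.47% lower. The exception was Hexa (0.17).

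In dedifferentiated HEC 13 of the 15 genes above were positive and 9 higher by 1 or more (background 52.8% and 12.5%), and all 15 below were negative, with 8 lower by 1 or more (47.2% and 8.90%). The exceptions were Ppp6c (-1.50) and Cpq (-1.003). Ly6i differed by 3.74 in inflamed and 2.80 in dedifferentiated HEC, Clu by 3.16 and 2.37 and Ly6c1 by -3.20 and -2.88. Cd63 differed more in inflamed HEC (4.18) than in homeostatic HEC, and Selp less (-0.38, and -0.20 in dedifferentiated HEC). These differences between groups were not tested.

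Over all genes that passed the filter, inflamed HEC had 3.51% higher and 5.88% lower, and dedifferentiated HEC 7.63% higher and 6.47% lower, and lists were read against these shares. Glycam1-high inflamed cells had a median of 3784.5 detected genes and Glycam1-low inflamed cells 4088.5. Ccl21a, which differed by 0.55 in homeostatic HEC, was higher by 4.24 in Glycam1-high inflamed cells and by 2.61 in Glycam1-high dedifferentiated cells, and Fut7 by 2.21 and 1.92. The capillary list again had no member higher, with 8 of 14 lower in inflamed (median -1.33) and 6 of 13 in dedifferentiated HEC (median -0.87). The interferon list had 3 of 27 members higher and 2 lower in inflamed HEC (median 0.57), with Gbp2 at 1.27, and 1 of 24 higher and 2 lower in dedifferentiated HEC (median -0.03). The endoplasmic reticulum list had 2 of 41 higher and 3 lower in inflamed HEC (median -0.36) and 9 of 41 higher and 1 lower in dedifferentiated HEC (median 0.18). In inflamed HEC 8 of 17 cell cycle genes were lower (median -0.98), and in dedifferentiated HEC 1 of 7 was higher and 1 lower (median 0.65).

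**Figure D5:**
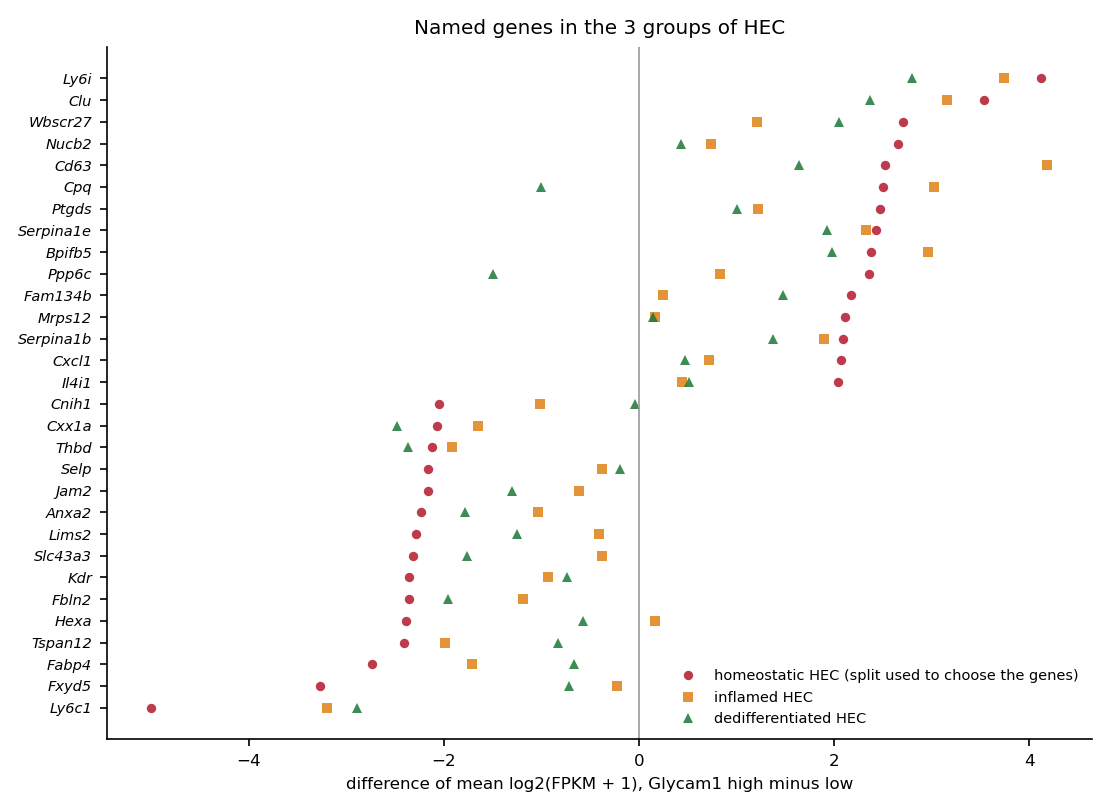
Difference of mean log2(FPKM + 1), Glycam1-high minus Glycam1-low, for the 30 leading genes in homeostatic HEC (circles, the cells that chose them), inflamed HEC (squares) and dedifferentiated HEC (triangles), each group divided at its own median. Apart from Hexa in inflamed HEC and Ppp6c and Cpq in dedifferentiated HEC, every gene lies on the same side of 0 in all 3 groups.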

How the data were processed

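The authors deposited FPKM values, 220 cells by 24049 gene symbols. The submitters' processing notes name the mouse build mm10, RSEM 1.2.18 and CASAVA 1.8, without roles; annotation and filters are not given there. A count model was not applied to FPKM, and FPKM are relative within a cell, so a very abundant transcript lowers the others. Means and SD of log2(FPKM + 1) were computed here with Python 3.11.15, numpy 2.4.6, pandas 2.3.3 and scipy 1.17.1; the scale understates changes of low genes. Depth was approximated from the steps of low FPKM over 2136 single-transcript genes of GENCODE M21 (GRCm38), and a few high values may be multiples of the true depth. The approximation was checked on data simulated with the same transcript lengths and formula. That check cannot show its accuracy on the deposited values. Amplified fragments without molecular tags are not independent molecules.

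Groups came from titles in the labels, and each group is 1 sample. Leading genes were the 15 with the largest difference in each direction among genes that reached an FPKM of 1 in at least 50% of the cells of either group, without small RNA, haemoglobin, ribosomal protein, predicted and clone names; members of 22 gene lists and 11 marker lists could be named in addition. The members and lists were chosen with earlier results of these data known. Cells were not filtered, and the handling of doublets is not given in the sources used here. Pseudocount, filter, scaling, place of the division, gene number and cells with other markers were varied in 12 alternatives. Of the list members, 1 is not reported here by name.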

Additional observations from a re-analysis of the deposited data

How the results depend on the processing

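All 30 leading genes kept their direction in each of the 10 alternatives that give a gene its own value (300 of 300 values), and 294 values stayed past 1; the exceptions were Serpina1b, Serpina1e, Cxcl1 and Il4i1. These genes were chosen as the extremes of the main setting, and the alternatives reuse the same cells. The kept direction was therefore largely set by the choice and is no independent support. Of 58 other list members past 1, 7 stayed past 1 in all 10. The counts of genes past 1 depend on the scale: 265 higher and 383 lower became 742 and 1006 with a pseudocount of 0.1, 48 and 63 with a pseudocount of 10, 1226 and 1747 as log2 ratios of arithmetic means, 436 and 758 between the top and bottom tercile of Glycam1 (27 cells each), and 490 and 589 in 24 pairs of cells matched on gene number, where fewer cells widen the spread. Without cells carrying other markers 588 genes were lower. Fos turned to -0.040 in matched cells. Rescaling without Glycam1 and median-ratio scaling left both counts within 1.5 times, and the differences in gene number and in summed FPKM without Glycam1 stayed within 1 SD over cells wherever they were computed. The capillary median ranged from -1.82 to -0.77, the angiogenic one from -1.42 to -0.37, the basement membrane one from -1.19 to -0.27 and the high endothelial one from 0.20 to 0.97. The medians of 12 of 32 lists changed sign under at least 1 alternative: L-selectin ligand enzymes, sialomucins, adhesion, chemokines, NF-kB, complement, immediate early, cell cycle, pan-leukocyte, lymphatic, fibroblastic and myeloid, with turned values from -0.087 to 0.381. No paired analysis was possible because each cell is its own library and the cell numbers in the titles tie no cell to another. Without named animals, no difference here has a replicate check.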
